A study of Arabidopsis thaliana with 24 samples.

Results

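Of the 30237 rows in the deposited table, 33 have an identifier that begins with ATMG, the prefix of genes annotated on the mitochondrial genome of Arabidopsis, and these 33 rows are described here. Identifiers are written without the suffix that the table adds to them. Expressed genes made up 17 of the 33 (51.5%), where expressed means that at least 4 of the 12 arrays of either genotype exceeded 4.5 on the log2 scale. The same rule was met by 19473 of all 30237 rows (64.4%) and by 64 of the 67 rows of the chloroplast genome (95.5%). The sources used here do not pair any of the 33 identifiers with a gene name or a product, and no entry of the reference annotation carries one of them, so that the genes are named by identifier and grouped by level, and no gene class is given.

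Plant mitochondria keep a small genome that encodes part of the respiratory chain, factors for cytochrome c maturation, some ribosomal proteins, rRNAs and tRNAs, next to many open reading frames without a known function. It is transcribed by RNA polymerases encoded in the nucleus, and most of its transcripts are then processed at their ends, spliced or edited. Their levels therefore rest on proteins that the nucleus supplies, as those of chloroplast transcripts do. In plant mitochondria a poly(A) tail generally marks an RNA for degradation, unlike the tail of a nuclear mRNA.

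Whole seedlings of the wild type Col and of *rve8-1*, a line with a T-DNA insertion in the clock gene *RVE8*, were grown for 7 days in cycles of light and dark and then moved to continuous light. No other allele and no agent separated the groups, and each sample pooled many plants. Harvests every 4 h from 72 to 116 h covered circadian times (CT) 0, 4, 8, 12, 16 and 20 h on days 4 and 5, with 1 array for each harvest and genotype. The 24 arrays thus formed 12 groups of genotype and time of day, in which day 5 served as the replicate of day 4, and *rve8-1* was represented by 1 insertion line. RVE8 is a Myb-like transcription factor that promotes the expression of evening-phased clock genes, and the comparisons asked which genes depend on it, at the same harvest time or after allowing for its delayed phase.

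*RVE8* itself had a mean of 6.09 (range, 4.28 to 7.37) in Col and 3.95 (range, 3.17 to 4.70) in *rve8-1* on the log2 scale. On each array the 25th percentile of all rows was in the range of 3.76 to 4.17, so that a level of 4.5 is low on this scale. The green tissue markers *RBCS1A* and *LHCB2.1* were high (means 13.7 and 11.2 in Col), and the marker *CAB3* had no row. Of 5 root markers 4 were expressed, with the nitrate transporter gene *NRT2:1* under the rule. Of 2 seed storage genes, *CRA1* was expressed (mean 5.795 in Col and 6.052 in *rve8-1*) and *CRU3* was not. The labelling kit primes cDNA from poly(A), so that a level need not follow the total amount of a mitochondrial RNA. Which part of the signal came from tailed RNA was not tested. In whole seedlings fewer cells of a type and less RNA per cell cannot be told apart. A level also depends on the probes of its row, and the levels of different genes are therefore listed and not read as relative abundance.

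The 33 rows fell into separate runs of identifiers, with none between ATMG00160 and ATMG00630, ATMG00720 and ATMG01120, or ATMG01170 and ATMG01350. The reference annotation lists 284 mitochondrial entries, 218 of them ncRNA. The share of expressed genes is thus one of these 33 rows and not of the mitochondrial genome. Expressed genes were found in each run. They made up 7 of the 14 rows from ATMG00010 to ATMG00160, 4 of the 9 from ATMG00630 to ATMG00720, 1 of the 3 from ATMG01120 to ATMG01170, and 5 of the 7 from ATMG01350 to ATMG01410. Of the 17, 16 met the rule in both genotypes and 8 were above 4.5 on all 24 arrays. The exception was ATMG00160, which exceeded 4.5 on 8 Col arrays and on 0 *rve8-1* arrays. Because it met the rule through Col alone, a difference in its favor in Col is partly set by the rule.

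**Figure D1:**
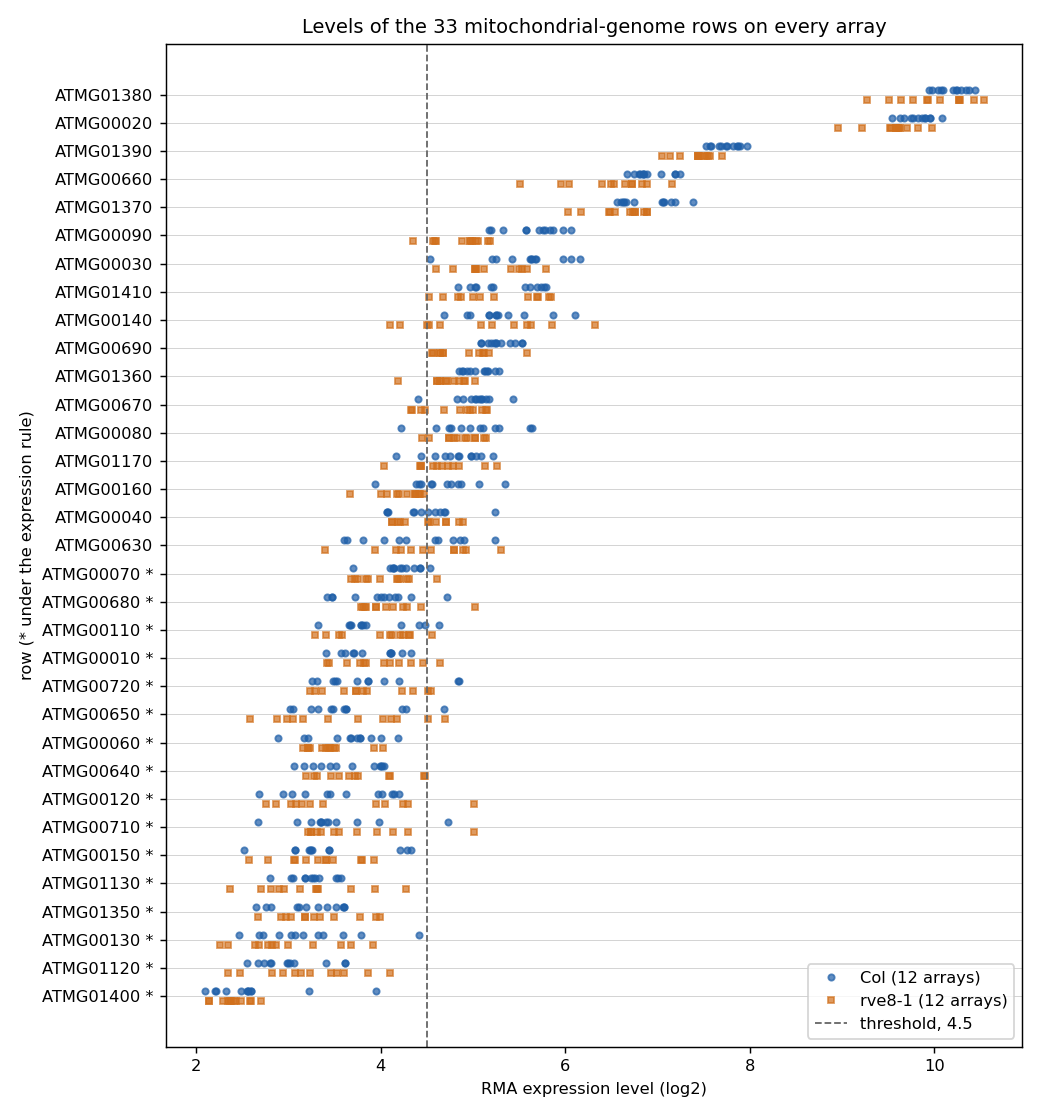
Expression level (log2, x axis) of the 33 mitochondrial-genome rows (y axis, ordered by their mean in Col) on each of the 12 Col arrays (circles) and 12 *rve8-1* arrays (squares); the dashed line marks 4.5 and asterisks mark the 16 rows that did not meet the expression rule. The 5 rows at the top, from ATMG01370 with a Col mean of 6.89 to ATMG01380 with 10.19, stand apart from the other 28, whose Col means end at 5.65.

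Only 5 genes had a mean of at least 6 in Col. The highest was ATMG01380, with 9.94 on the lowest, 10.22 on the median and 10.44 on the highest of the 12 Col arrays, and 9.27, 9.997 and 10.53 in *rve8-1*. The *rve8-1* arrays thus spread more widely than those of Col, with 6 of them below every Col array. ATMG00020 followed with 9.54, 9.84 and 10.08 in Col, and with 8.95, 9.60 and 9.98 in *rve8-1*. In ATMG01390 the values were 7.52, 7.75 and 7.97 against 7.05, 7.44 and 7.70, so that 7 Col arrays lay above every *rve8-1* array. The means of ATMG00660 were 6.93 ± 0.19 in Col and 6.49 ± 0.46 in *rve8-1* (SD over 12 arrays each), and those of ATMG01370 were 6.89 ± 0.29 and 6.60 ± 0.28.

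The other 12 expressed genes had Col means from 4.38 to 5.65. ATMG00090 led them with 5.65 ± 0.29 in Col and 4.86 ± 0.27 in *rve8-1* (SD, n = 12), followed in Col by ATMG00030, ATMG01410, ATMG00140, ATMG00690, ATMG01360, ATMG00670, ATMG00080, ATMG01170, ATMG00160, ATMG00040 and ATMG00630. The SD between the 2 arrays of a group had a median of 0.31 over the 17 expressed genes (range, 0.19 to 0.60), against 0.17 over all expressed genes of the table.

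In the value that decides the rule, no gene lay between 4.36 and 4.70. The 4th highest array of the better genotype, which decides the rule, was at 4.70 for ATMG00040, 4.80 for ATMG00630 and 4.84 for ATMG00160, the 3 genes just inside. Just outside were ATMG00070 at 4.36, ATMG00110 at 4.24 and ATMG00680, also at 4.24. Among the 16 genes that did not meet the rule, 8 exceeded 4.5 on no array and 8 on 1 to 4 arrays. Their Col means ran from 2.61 for ATMG01400 to 4.22 for ATMG00070. Their mean was lower in *rve8-1* in 8 and higher in the other 8, with a median difference of 0.00 on the log2 scale. When all 30237 rows were fitted together, none of these 16 passed the test of mean level (lowest limma adjusted p = 0.464, with 0 at an unadjusted p under 0.05).

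Of the 17 expressed genes, 16 had a lower mean over the 12 arrays in *rve8-1* than in Col, with a median difference of -0.26 on the log2 scale. Without ATMG00160 these values were 15 of 16 and -0.24. Over all 33 rows, 24 had a lower mean and the median difference was -0.16. Over all expressed genes of the table, 50.2% had a lower mean and the median difference was -0.00. The mean-level test called 3 of the 17, each lower in *rve8-1*, where 1.07% of the 19473 expressed genes were called in either direction 0.657% as lower and 0.416% as higher (limma, Benjamini-Hochberg adjusted p under 0.05 over all expressed genes). At an unadjusted p under 0.05 there were 9 of 17, ATMG00160 among them, against 20.1% of all expressed genes. Counted by harvest, 8 of the 17 were lower in *rve8-1* at 10 or more of the 12 harvest times (5.78% of expressed genes), 5 at 11 or more (1.64%), and ATMG00090, ATMG00670 and ATMG01390 at all 12 (0.334%). The 8 also include ATMG00160, whose direction is partly set by the rule. None of the 17 separated the genotypes without overlap in either direction. Of all expressed genes, 0.0359% had all 12 *rve8-1* arrays below all 12 Col arrays.

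ATMG00090 had the largest difference. Its lowest, median and highest arrays were at 5.18, 5.74 and 6.06 in Col and at 4.35, 4.97 and 5.19 in *rve8-1*. The genotypes overlapped by a single array each, since 11 Col arrays lay above the highest *rve8-1* array and 11 *rve8-1* arrays below the lowest of Col. The mean was lower by 0.79 on the log2 scale in *rve8-1*, a 1.73-fold difference (-0.79, SE 0.125, limma adjusted p = 0.00831), and lower in 12 of 12 harvests. The difference lay between -0.86 and -0.72 when any 1 of the 24 arrays was left out, and the call held each time.

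For ATMG00690 the lowest, median and highest arrays were at 5.08, 5.25 and 5.53 in Col and at 4.56, 4.82 and 5.59 in *rve8-1*. In *rve8-1*, 8 arrays lay below all Col arrays, but *rve8-1*_80 was above all of them. The difference in mean level was -0.39 (SE 0.075, limma adjusted p = 0.0211), with *rve8-1* lower in 10 of 12 harvests. The call was lost without Col_80, Col_92, Col_96, Col_108 or *rve8-1*_100, with adjusted p from 0.0505 to 0.0543.

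ATMG01390, the third called gene, was lower in *rve8-1* at each of the 12 harvests, by -0.33 on average (SE 0.075). Its limma adjusted p of 0.04997 was just under the threshold, and the call was lost without any 1 of 19 arrays (highest adjusted p = 0.106). Just missing the threshold were ATMG01360 (-0.34, adjusted p = 0.0504) and ATMG00160 (-0.42, adjusted p = 0.0591). In ATMG01360, 7 Col arrays exceeded every *rve8-1* array. ATMG00160 entered the test through its Col arrays alone, and its difference is given as a description.

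**Figure D2:**
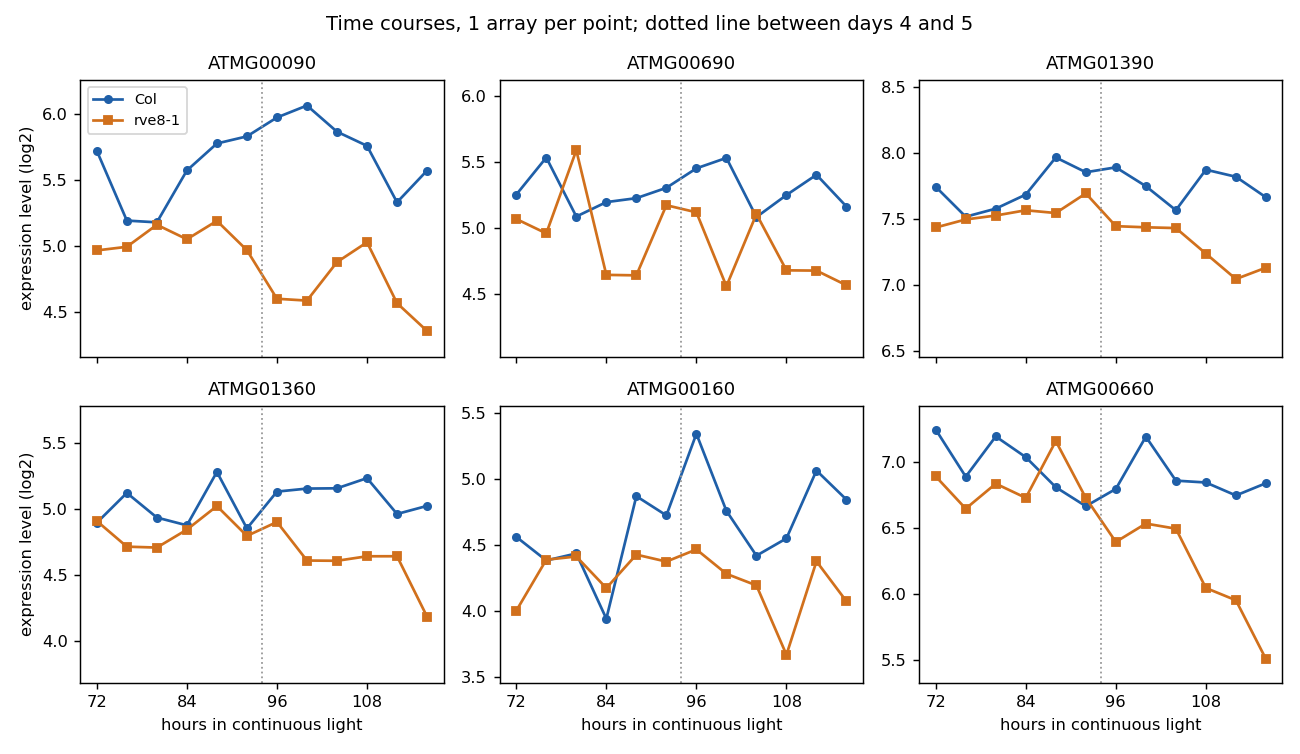
Expression level (log2, y axis) of 6 mitochondrial-genome genes against hours in continuous light (x axis), with 1 array per point for Col (circles) and *rve8-1* (squares); each panel spans the same number of log2 units and the dotted line separates days 4 and 5. ATMG00090, ATMG00690 and ATMG01390 passed the mean-level test, and in ATMG00660 the *rve8-1* array at 116 h reached 5.51, the lowest value of that gene.

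Among the 12 genes that did not come near the threshold, differences ranged from -0.43 for ATMG00660 (SE 0.154, limma adjusted p = 0.150) to 0.10 for ATMG00630 (SE 0.190, adjusted p = 0.792). ATMG00630 was the 1 expressed gene with a higher mean in *rve8-1*. In ATMG00040 the means were 4.48 in Col and 4.47 in *rve8-1*, and the sign of their difference depended on single arrays. The highest genes, ATMG01380 and ATMG00020, had differences of -0.20 (SE 0.117, adjusted p = 0.353) and -0.26 (SE 0.091, adjusted p = 0.150), the latter in 11 of 12 harvests.

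**Figure D3:**
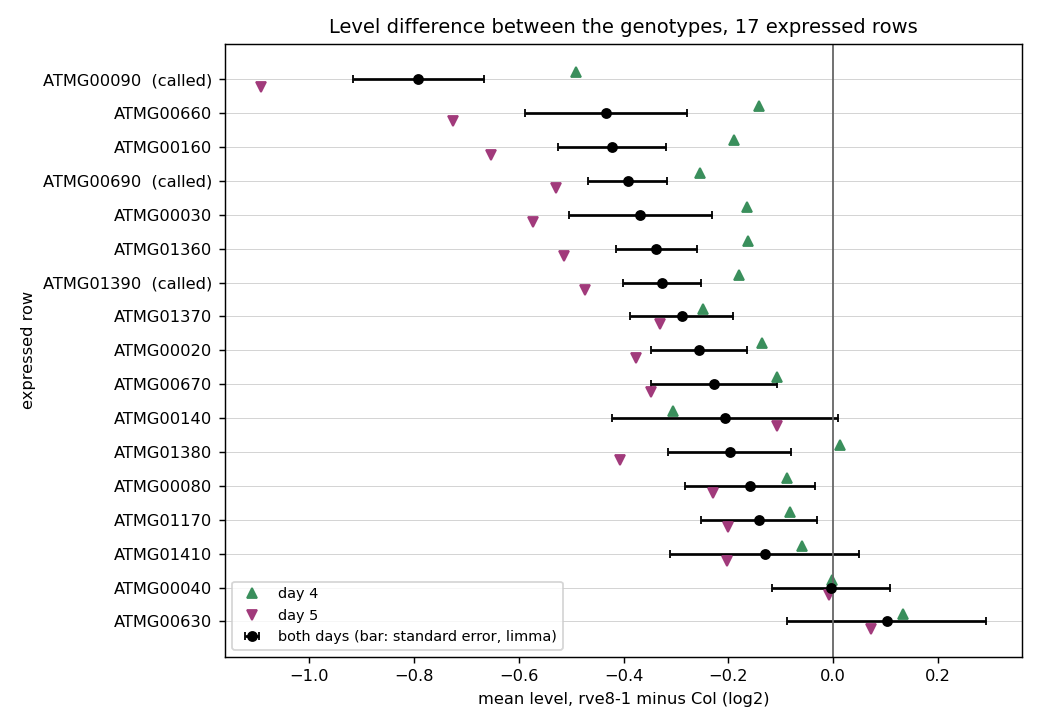
Mean level in *rve8-1* minus mean level in Col (log2, x axis) for the 17 expressed mitochondrial-genome genes (y axis); circles with bars give the difference over both days and its standard error from limma, upward triangles the difference on day 4 and downward triangles that on day 5. Of the 17 circles, 16 lie below 0, and ATMG00090, ATMG00690 and ATMG01390 are the genes called over both days.

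When the genotypes were compared at each of the 6 times of day at the same harvest time, 2 of the 17 were called (limma F test over 6 differences, adjusted p = 0.0128 for ATMG00690 and 0.0192 for ATMG00090). With 7.91% of all expressed genes called by this test, 2 of 17 was not far from the background, and at an unadjusted p under 0.05 there were 6 of 17 against 23.8%. Taking *rve8-1* 4 h later than Col left 0 of 17 called (lowest limma adjusted p = 0.214, for ATMG00090), where 0.0616% of expressed genes were called. At an unadjusted p under 0.05 the test with the offset had 5 of 17, against 13.1% of all expressed genes. ATMG00160, which met the rule through Col alone, was among these 5 and among the 6 at the same harvest time. With a 24 h cosine in place of the 6 group means, where 1.07% of expressed genes were called, the test with the offset called ATMG00090 (adjusted p = 0.00388) and ATMG01390 (adjusted p = 0.0471).

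The days were then taken apart, which was chosen after the values had been seen. For this the model also held a day term for each genotype. The p-values of these tests thus measure the spread of single harvests about the day shift, not the spread between days. On day 4 the difference between the genotypes had a median of -0.14 over the 17 genes, 15 were below 0 and 0 were called (lowest limma adjusted p = 0.361, 2 at an unadjusted p under 0.05). Of all expressed genes, 46.1% were then below 0, with a median of 0.01, 0.0462% were called and 9.79% had an unadjusted p under 0.05. On day 5 the median was -0.38, 16 were below 0, 4 were called and 11 had an unadjusted p under 0.05. Of all expressed genes, 53.0% were below 0, with a median of -0.01, 0.221% were called and 13.2% had an unadjusted p under 0.05. The 4 were ATMG00090 (-1.09, adjusted p = 0.00740), ATMG00690 (-0.53, adjusted p = 0.0438), ATMG00160 (-0.65, adjusted p = 0.0472) and ATMG01360 (-0.51, adjusted p = 0.0472). ATMG00160 met the expression rule through Col alone, and without it 3 of 16 were called and the median was -0.36. The 11 with an unadjusted p under 0.05 on day 5 also include ATMG00160. ATMG01390, called over both days, had -0.18 on day 4 and -0.47 on day 5 (adjusted p = 0.0534).

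Within Col, day 5 minus day 4 had a median of 0.05 over the 17 genes (0.02 over all expressed genes) and was below 0 in 6 (42.9% of expressed genes), with 0 called (0.00514% of expressed genes) and 3 at an unadjusted p under 0.05 (5.63% of expressed genes). Within *rve8-1* it had a median of -0.23 (-0.01 over all expressed genes) and was below 0 in 14 (53.5% of expressed genes), with the lowest value in ATMG00660 (-0.68, limma adjusted p = 0.379). Here 0 of 17 and 0% of expressed genes were called, and 9 of 17 had an unadjusted p under 0.05, against 4.37% of expressed genes. ATMG00660 read 6.83 on day 4 and 6.15 on day 5 in *rve8-1*, and 6.97 and 6.88 in Col. The test of the difference itself, between the day shifts of the genotypes, called 0 of 17 and 0% of all expressed genes (lowest limma adjusted p = 0.999). At an unadjusted p under 0.05 it had 5 of 17, against 3.64% of expressed genes, and its median was -0.24 against -0.03 over all expressed genes. The 16 genes under the rule had a median difference between the genotypes of -0.03 on day 4 and 0.03 on day 5.

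The 6 arrays of *rve8-1* on day 5 were also the lowest of the 24 for the 17 genes as a set. The median deviation of the 17 from their own means over 24 arrays lay between -0.45 and -0.17 on these arrays, between -0.11 and 0.09 on the day 4 arrays of *rve8-1*, and between -0.05 and 0.31 in Col. It was lowest on *rve8-1*_116 (-0.45), *rve8-1*_112 (-0.35) and *rve8-1*_100 (-0.27). The 3 last *rve8-1* arrays, at 108, 112 and 116 h, were left out as a check added after the values had been seen. ATMG00090 (-0.69, limma adjusted p = 0.0364) and ATMG00690 (-0.35, adjusted p = 0.0492) were still called for mean level without them, and ATMG01390 was not (-0.21, adjusted p = 0.0734). At the same harvest time ATMG00690 alone was then called, with an adjusted p of 0.0739 for ATMG00090. The difference of ATMG00660 was -0.17 without these arrays, in place of -0.43.

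**Figure D4:**
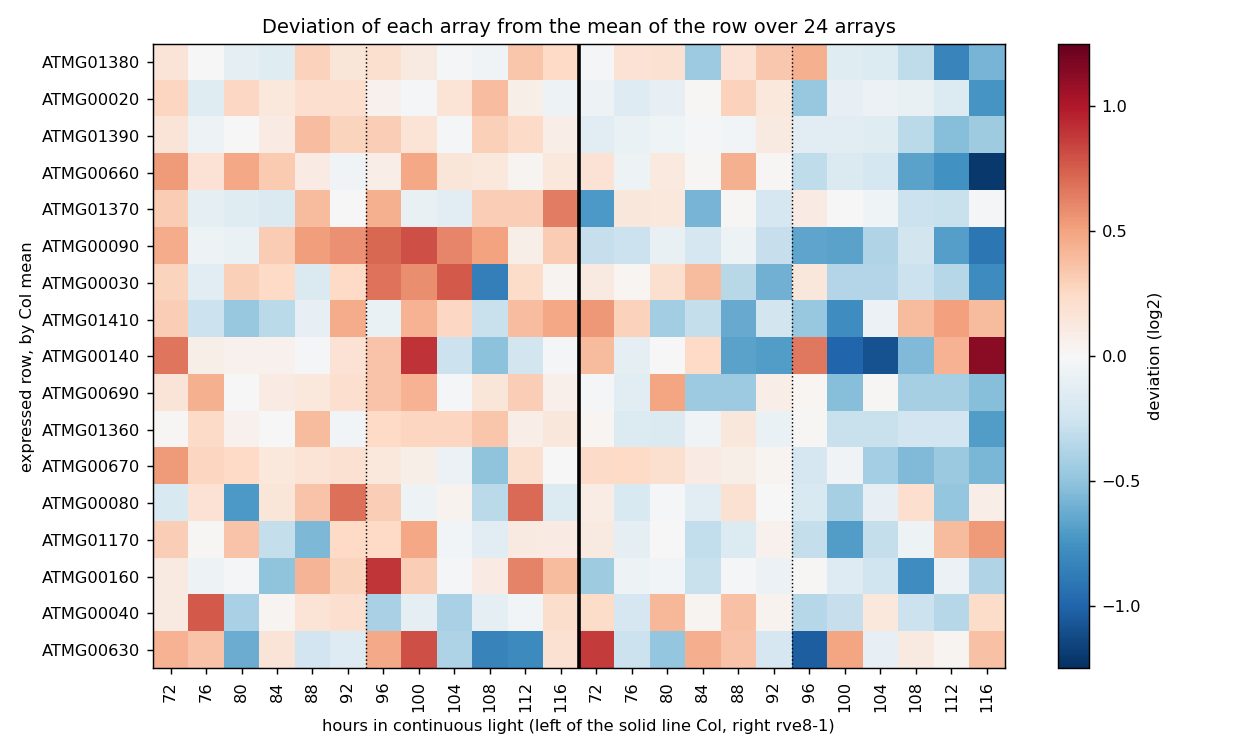
Deviation of each array from the mean of the gene over all 24 arrays (log2, color scale) for the 17 expressed mitochondrial-genome genes (y axis, ordered by Col mean), with the 12 Col arrays on the left and the 12 *rve8-1* arrays on the right, each in order of hours in continuous light (x axis); dotted lines separate days 4 and 5. The 6 *rve8-1* arrays of day 5 have the lowest median deviations, from -0.45 to -0.17.

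Genes of the chloroplast genome were also lower in *rve8-1*. Of the 64 expressed, 61 had a lower mean (50.2% of all expressed genes), with a median difference of -0.42. For mean level 24 were called, all of them lower, where 0.657% of all expressed genes were called as lower. The median deviation of the chloroplast genes lay between -0.88 and 0.00 on the day 5 arrays of *rve8-1*, between -0.26 and 0.04 on its day 4 arrays, and between -0.13 and 0.43 in Col. On *rve8-1*_116 both sets were at their lowest, at -0.88 for the chloroplast and -0.45 for the mitochondrial genes. On *rve8-1*_100, in contrast, the chloroplast genes were at 0.00 and the mitochondrial genes at -0.27. Over all rows of the table, the array medians lay between 4.92 and 4.98 on day 5 in *rve8-1*, within the range of 4.90 to 5.001 in Col. These levels had been normalized across arrays before deposit, which brings such medians together. The part of the lower chloroplast levels in the differences of the mitochondrial genes was not tested.

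Time of day was considered next. In Col, 0 of the 17 genes were called for a dependence on time of day (limma F test over 6 times, lowest adjusted p = 0.221, 0 at an unadjusted p under 0.05), where 11.8% of all expressed genes were called and 25.5% had an unadjusted p under 0.05. In *rve8-1* there were also 0 of 17 (lowest adjusted p = 0.0640, 1 at an unadjusted p under 0.05), where 14.4% and 31.3% of expressed genes were. The time courses of the genotypes differed by the interaction test in 0 of 17 (lowest limma adjusted p = 0.121, 1 at an unadjusted p under 0.05), with 7.11% called and 20% at an unadjusted p under 0.05 over all expressed genes. A rhythm weaker than the spread between days would not have been detected.

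The smallest p in Col belonged to ATMG00160, with means of 4.95 at CT0, 4.57 at CT4, 4.42 at CT8, 4.24 at CT12, 4.96 at CT16 and 4.78 at CT20 (2 arrays each). In *rve8-1* it belonged to ATMG00690, with means of 5.09, 4.76, 5.34, 4.66, 4.66 and 4.87 in the same order. Its level at CT8 was the highest, but rested on 5.59 at 80 h and 5.10 at 104 h. ATMG00690 was called in *rve8-1* when any of the arrays *rve8-1*_76, *rve8-1*_92, *rve8-1*_104 or *rve8-1*_116 was left out (lowest adjusted p = 0.0165). The largest p were those of ATMG00660 in Col (adjusted p = 0.958), whose means ran from 6.75 at CT20 to 7.04 at CT4, and of ATMG01410 in *rve8-1* (adjusted p = 0.960), whose means ran from 5.05 at CT8 to 5.39 at CT20.

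Fitted 24 h cosines had a median amplitude of 0.18 over the 17 genes in Col and 0.15 in *rve8-1*, against 0.16 and 0.18 over all expressed genes. The 3 with the largest amplitude in Col were ATMG00630 (0.56), ATMG00140 (0.40) and ATMG00080 (0.316), followed closely by ATMG00160 (also 0.316). In *rve8-1* these were ATMG00140 (0.44), ATMG01170 (0.28) and ATMG01380 (0.27). ATMG00140 was high at CT0 in both genotypes, with means of 5.71 in Col and 5.72 in *rve8-1*, but its second highest mean was at CT4 in Col (5.69) and at CT20 in *rve8-1* (5.41). ATMG00630, with means of 4.88 at CT0 and 5.01 at CT4 and from 3.91 to 4.44 at the other times in Col, had its highest *rve8-1* mean at CT12 (4.71).

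The 5 highest genes had their highest mean at CT16 (ATMG01380), CT12 (ATMG00020), CT16 (ATMG01390), CT4 (ATMG00660) and CT0 (ATMG01370) in Col. In *rve8-1* the times were CT0, CT16, CT8, CT8 and CT4, in the same order. Over all 17, the highest mean in Col was at CT0 in 5, at CT4 in 5, at CT16 in 4, and at CT8, CT12 and CT20 in 1 each. In *rve8-1* it was at CT0 in 4, at CT8 in 4, at CT20 in 3, and at CT4, CT12 and CT16 in 2 each. It was at the same time in both genotypes in 3 genes and 4 h later in *rve8-1* in 7. As no gene was called for time of day, these times are descriptions of the group means. The shares of all expressed genes with the same or a later time were not computed.

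Rhythms were also tested by JTK_CYCLE, which compares each series of 12 arrays with cosine templates of 20, 24 and 28 h by ranks. It called 0 of 17 in Col (lowest adjusted p = 0.0968, for ATMG00630), where 13.8% of expressed genes were called, and 0 of 17 in *rve8-1* (lowest adjusted p = 0.248, for ATMG00020), where 11.5% were. The null used treats the templates as free of ties. A null that allows for ties, also without correction over genes, called ATMG00140, ATMG00630 and ATMG01370 in Col (adjusted p from 0.0305 to 0.0454), where 29.0% of expressed genes were called. It called 0 of 17 in *rve8-1* (lowest adjusted p = 0.0755), where 28.2% were.

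From array to array the 17 genes correlated weakly with one another. Over their 136 pairs the mean Pearson correlation was 0.11 across the 12 Col arrays and 0.12 across the 12 *rve8-1* arrays, against 0.02 and 0.01 over all pairs of expressed genes. The arrays are shared by all pairs, so that these values describe the 24 libraries.

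Nuclear genes that serve the same organelle were listed for comparison. Of 6 genes for maintenance and expression of the mitochondrial genome, which include the mitochondrial RNA polymerases, the surveillance gene *MSH1* and maturases, 4 were expressed. None of the 4 was called in any of the 6 limma tests, and their mean differences ran from -0.11 to 0.14. Of 16 nuclear genes of the respiratory chain all were expressed, 7 had a lower mean in *rve8-1*, and the median difference was 0.02. For mean level 0 were called (1.07% of all expressed genes). At the same harvest time, where 7.91% of all expressed genes were called, there were 2. One was *AOX1A*, the alternative oxidase, with means of 7.67 in Col and 7.45 in *rve8-1* (limma adjusted p = 0.0285). The other was AT5G08690, a beta subunit of the ATP synthase with close paralogs on the array, which was also called for time of day in Col (adjusted p = 0.0100) and for the interaction (adjusted p = 0.00997). *CYTC-2*, a cytochrome c, was called for time of day in *rve8-1* (adjusted p = 0.0166).

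A copy of much of the mitochondrial genome lies in chromosome 2 of Col, so that probes may measure both copies. Of 22 nuclear rows from AT2G07660 to AT2G07811, which lie in and near that region, 5 were expressed and 3 of these had a lower mean in *rve8-1*, with 0 called for mean level. AT2G07811 was called at the same harvest time (adjusted p = 0.0175), for time of day in Col (adjusted p = 0.0115) and for the interaction (adjusted p = 0.0206), with means of 5.66 in Col and 5.33 in *rve8-1*. Which copy gave the signal of a mitochondrial row was not tested.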

How the data were processed

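RNA of pooled whole seedlings was measured on 24 AGRONOMICS1 tiling arrays, and precision is limited by their number. Before deposit the authors excluded probes that performed poorly and applied RMA with the TAIR9 gene annotation, which covers background correction, normalization and summarization. The deposited log2 levels were used without further scaling. The table held 0 columns of other samples.

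Genes with at least 4 of 12 arrays above 4.5 in either genotype entered a limma model (version 3.58.1, R 4.3.3) of 12 group means, each over 2 arrays. P-values were adjusted by Benjamini-Hochberg over 19473 genes and called under 0.05. Nothing states that the harvests came from separate cultures, so that p-values of this model measure the spread between days. The tests that took the days apart added a day term for each genotype. Their p-values therefore measure the spread of single harvests about that shift and not the spread between days. The same-numbered days were not taken as pairs, and a replicate block for the day was an alternative. When an array was left out, its partner took the variance estimated from all groups. The JTK_CYCLE procedure was written anew in Python 3.11.15 with 18 templates and Bonferroni adjustment over the templates alone. The scripts were tested on simulated data.

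Genes were named if they were called, among the 5 highest, next to the threshold, or among the 3 largest amplitudes, the rule on gene classes having no annotation to rest on, and further genes were named after their values were seen. The genes, lists and tests were chosen with earlier results of these data known.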

Additional observations from a re-analysis of the deposited data

How the results depend on the processing

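Alternatives covered the expression filter, scaling, the variance prior, the replicate block, a 24 h cosine in place of group means, the settings of JTK_CYCLE and each array left out. The number expressed was 17 throughout, except 16 where both genotypes had to pass. Each count given next is of the 17, with the share of all genes tested in parentheses. For mean level 5 were called after median centring (1.38%) and 5 with the 24 h cosine (2.31%), in both ATMG00160 and ATMG01360 besides the 3. There were 4 with a trend and robust prior (1.72%). Only 2 were called with no filter (0.288%), quantile normalization (1.09%), no moderation (0.852%) or without the 3 last *rve8-1* arrays (1.09%). With an array left out, between 1 and 5 were called (0.395% to 6.1%). The lowest of these came without Col_80, Col_92, Col_96, Col_108 or *rve8-1*_100, and the highest without *rve8-1*_80 (6.1%) or *rve8-1*_92 (1.3%). ATMG00090 was called for mean level in all 33 alternatives, ATMG01390 was lost in 23 and ATMG00690 in 5. At the same harvest time 1 was called without moderation (6.62%), 6 with the 24 h cosine (16.8%), 1 without the 3 last *rve8-1* arrays (5.33%), and 2 to 4 with an array left out (5.23% to 9.94%; 4 without *rve8-1*_92, 3 without Col_72, *rve8-1*_88 or *rve8-1*_96). With *rve8-1* taken 4 h later, 2 were called with the 24 h cosine (1.07%). Time of day in *rve8-1* ranged from 0 to 1 with an array left out (10.4% to 21.4%), and so did the interaction (5.07% to 8.79%), in each case for ATMG00690 (interaction without *rve8-1*_92, *rve8-1*_104 or *rve8-1*_116). JTK_CYCLE in Col called 3 with the null that allows for ties (29.0%) and 0 to 1 with an array left out (10.7% to 14.0%; ATMG00630 without Col_84, ATMG01370 without Col_92). With the replicate block 3 were called for mean level (1.14%) and 2 at the same harvest time (7.84%), and no call changed. The sign of ATMG00040 turned without any 1 of 10 arrays (range over all arrays left out, -0.0778 to 0.0690) and without the 3 last *rve8-1* arrays (0.0664), and that of ATMG00630 without *rve8-1*_72 (range, -0.0563 to 0.260). The cause of these shifts was not tested.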
